A study of Oncorhynchus mykiss with 6 samples.

Results

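MicroRNAs are cut from hairpin-shaped transcripts, and each hairpin has a 5′ arm and a 3′ arm that can both yield a small RNA. In most hairpins one arm, the guide, is loaded into Argonaute and pairs with messenger RNAs through its seed, while the other, the passenger, is released and degraded. Entries of the miRNA catalogue for fish often list a mature sequence for one arm alone. The sequences described here are small RNAs of rainbow trout liver that were named after the arm of a known fish hairpin for which their row gives no listed mature miRNA. Their names hold a lower-case "mir" and the ending p5 or p3, in place of the "miR" of a listed mature miRNA. Every row of the deposited miRNA table with such a name was taken except those of mir-7641, which gave 234 of 1427 rows, or 16.4%. The table also holds 710 rows with the name of a listed mature miRNA, 450 predicted small RNAs and 6 rows of mir-7641. The names of 27 let-7 rows end in p5 or p3 but do not hold "mir", so these stayed outside the rule.

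The series asks how hepatic miRNAs of rainbow trout (Oncorhynchus mykiss) respond to a few days without food. Small RNA was sequenced on an Illumina GAIIx in 3 libraries from livers of fish fasted for 4 days (replicates 3, 4 and 5) and 3 from control livers (replicates 3, 4 and 6). All 6 libraries are labelled liver, juvenile (spelled "Juvenille"), wild type and, as strain, Walbaum. The labels do not state whether the libraries are of separate fish or tanks, so every p-value reflects only how these libraries vary, and that variation may be technical.

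The table's counts summed to 737686, 1432592 and 1191404 in the fasted libraries and 4203708, 982844 and 4190377 in the control libraries. Rows of miR-122, the defining miRNA of hepatocytes, held 35.7 to 42.6% of the counts in the fasted libraries and 35.1 to 40.1% in the control libraries, which fits the label liver. Muscle miRNAs (miR-1, miR-133, miR-206 and miR-499) held at most 0.0296% of any library, in fasted replicate 3. Fasted replicate 3 stood apart: its table counts were 15.1% of its mappable reads, against 34.9 and 47.8% in the other fasted libraries and 45.0 to 61.0% in the control libraries. Its mir-7641 rows held 1.78% of the counts, against at most 0.326% in the other 5 libraries. For the tested arms and the summed share, results that rest on it are given with and without it. No such value is given for untested arms.

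The sequences of the 12 most abundant arms are shown first, since these 12 held 88.0% of the class's counts. Each is written 5′ to 3′ with T for U, as deposited, and capitals mark the seed, bases 2 to 8. The prefix names the fish whose catalogue entry was used, and the suffix, where there is one, gives the number of substitutions against that entry with position and bases.
ssa-mir-16a-1-p3: tTAAAACTactgctgaagcct
ola-mir-122-p5_2ss16GA22GT: tGGAGTGTgacaatgatgtttttt
ssa-mir-122-1-p3_1ss12GA: tGTCCTCTgctatca
dre-mir-451-p3_1ss6TC: tTTAGCAAtggtaagggttct
ssa-mir-30e-1-p3: gTGAGTTGgcagcagagg
ola-mir-214-p3_1ss22AT: aCAGCAGGcacagacaggcagtt
ssa-mir-449a-p5_2ss12CT17GA: aGGCAGTGtaatgttaac
tni-mir-199-3-p3_2ss3AG22AT: aCGGTAGTctgcacattggtttt
dre-mir-99-2-p3_1ss16CG: cTCGATTCtgtgggtg
ola-mir-223-p5_1ss9AC: tGTATTTGccaagctgagttggacact
ccr-mir-457a-p5_2ss14AT17TC: tAGCAGCAcatcattactgg
dre-mir-731-p3_2ss10CT22CA: cACCGGGAatttcgtgtcagcaa
No 2 of the 12 share a seed. The seeds of 7 of them (mir-16a-1-p3, mir-122-1-p3, mir-451-p3, mir-30e-1-p3, mir-99-2-p3, mir-199-3-p3 and mir-223-p5) occurred in none of the 710 listed rows. The seed of mir-122-p5 occurred in 5 listed rows, all of miR-122. The mir-457a-p5 seed occurred in 12 listed rows, all numbered 15 or 16. The mir-449a-p5 seed occurred in 3 listed rows numbered 34 or 449, families known to share a seed. Over the whole class, the 234 sequences had 214 different seeds, and 44 of them (18.8%) had a seed that a listed row also has.

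The names covered many hairpins thinly. They came from 106 hairpin numbers and 138 hairpins counted by number and letter, under the prefixes of 8 fish. Zebrafish (dre) gave 52 rows, medaka (ola) 41, Atlantic salmon (ssa) 32, channel catfish (ipu) 31, carp (ccr) 29, the pufferfish fru 26, halibut (hhi) 13 and the pufferfish tni 10. The salmon rows held 4048 of the 6454 counts and the medaka rows 1310. Number 29 had the most rows, 10, while numbers 30 and 181 had 8 each, but the 10 rows of number 29 together held 79.4 counts. The 4 rows of mir-16 held 2928 counts and the 3 rows of mir-122 held 1735. The next were mir-30 with 212 counts, mir-451 with 176, mir-214 with 149 and mir-199 with 124. By arm, 123 rows were p5 and 111 were p3, and the p3 rows held 74.1% of the counts.

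The class was rare. Its 6454 counts were 0.0507% of all counts in the table, pooled over the 6 libraries. A single sequence, ssa-mir-16a-1-p3, held 45.3% of them, and it and the 2 commonest mir-122 arms held 72.2%. Of the 234 rows, 167 (71.4%) had a total under 3 counts over all 6 libraries, against 24.4% of the listed rows. Of these, 30 had a total below 1, which arises where a read is divided between rows. Only 29 rows reached 10 counts and 7 reached 100. Detection followed the totals: 129 rows had a count in 1 library and 22 (9.40%) in all 6, against 366 (51.5%) of the listed rows. The median total was 1 count, against 21.5 for listed rows.

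**Figure D1:**
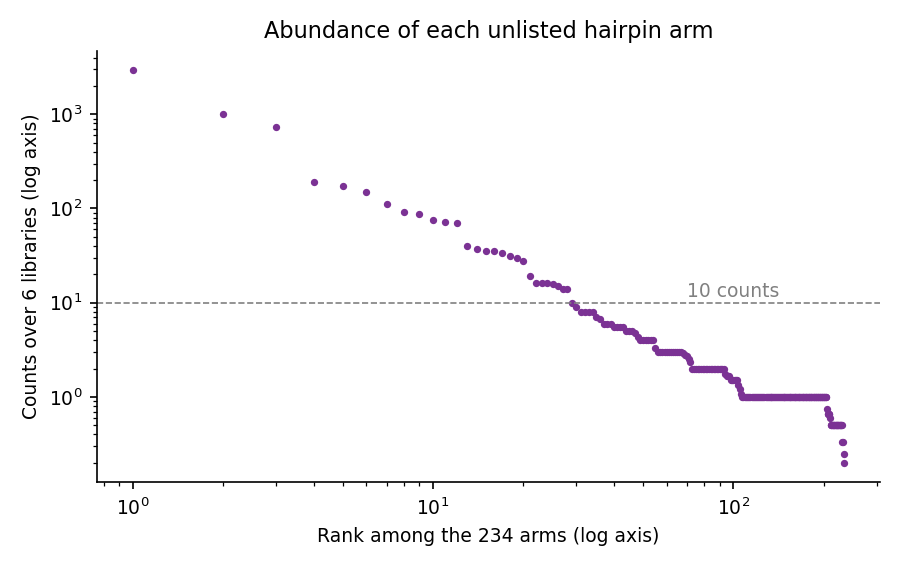
Total counts over the 6 libraries of each of the 234 unlisted hairpin arms (y, log axis) by rank (x, log axis); each point is 1 sequence and the dashed line marks 10 counts. 3 sequences lie far above the rest, 29 reach the line, and a long flat stretch sits at 1 count.

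The arms were short. Their median length was 18 nt (range 15 to 31), against 22 nt (15 to 32) for listed rows. Sequences of 15 to 19 nt made up 141 rows, or 60.3%, against 4.65% of listed rows, and 61 rows (26.1%) had exactly 15 nt, the shortest length kept in the read summary. Sequences of 22 nt, the commonest length of listed rows at 32.5%, made up 8.55%. Weighted by counts the picture differed: arms of 20 to 24 nt held 76.4% of the class's counts and arms of 15 to 19 nt held 21.7%, most of it from 1 sequence, the 15-nt ssa-mir-122-1-p3_1ss12GA with 728 counts. Listed rows of 20 to 24 nt held 99.95% of the listed counts. A first base T, common at the 5′ end of Argonaute-bound miRNAs, was found in 32.9% of the arms and 44.1% of listed rows, and a first base G in 16.2% and 9.15%. Median GC content was 46.7% in the arms and 44.0% in listed rows. These shares are descriptions, with no test, since related rows share letters.

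**Figure D2:**
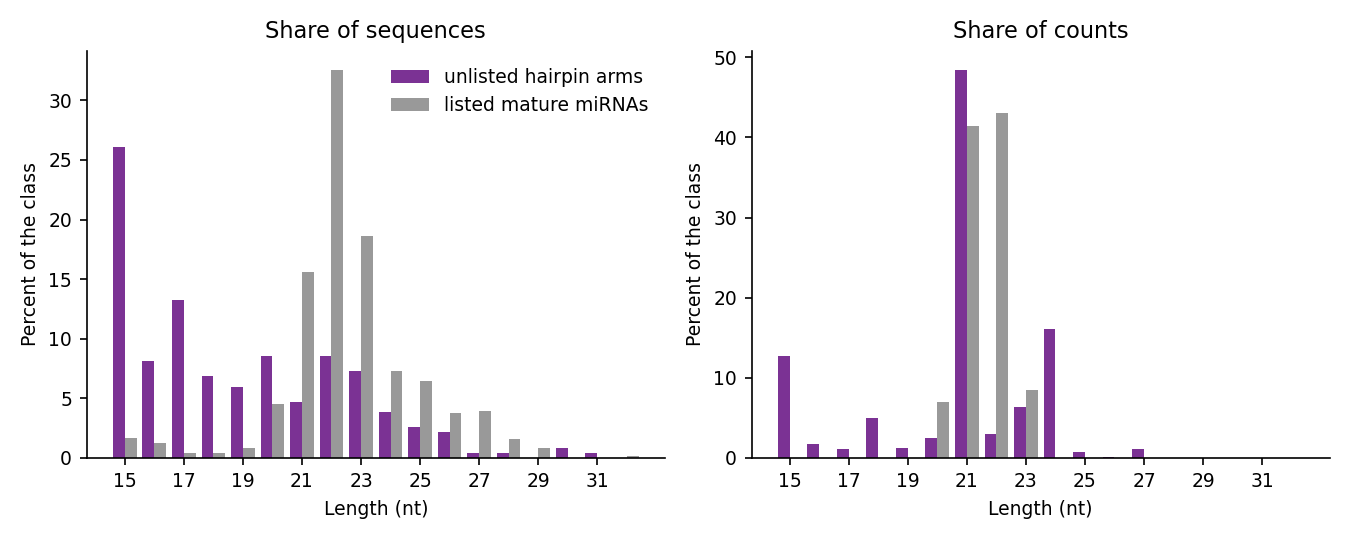
Percent of sequences (left) and of counts (right) at each length in nt, for the 234 unlisted hairpin arms (purple) and the 710 listed mature rows (grey). By sequences the arms peak at 15 nt and the listed rows at 22 nt; by counts most of the arms' total sits at 21 and 24 nt, the lengths of mir-16a-1-p3 and mir-122-p5.

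Most names recorded a substitution against the catalogue entry: 196 of the 234 rows (83.8%), against 28.0% of listed rows. All 196 carry the written base at the written position. Of 271 substitutions in all, 111 lay in the last 3 bases and 65 in the seed. The 38 rows with none held 3429 counts, of which 2923 were ssa-mir-16a-1-p3.

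The label, an arm with no listed mature miRNA, was checked against the listed rows. A listed row of the same number was in the table for 203 of the 234 arms, one of the same number and letter for 185, and none for 31. When each arm was laid without gaps along the listed rows of its number, 59 arms holding 1619 counts (25.1% of the class) matched one over at least 15 bases with at most 2 mismatches, and 33 of these, holding 398 counts, matched with none. By this measure the 59 are length or letter variants of a listed row. They include 4 of the 12 most abundant arms, shown here beside the listed row, with capitals for letters that differ from it or lie beyond its ends.
ola-mir-122-p5_2ss16GA22GT: tggagtgtgacaatgAtgtttTTT
dre-miR-122_R-1: tggagtgtgacaatggtgttt
ola-mir-214-p3_1ss22AT: acagcaggcacagacaggcagtT
ssa-miR-214-3p_L-1_1ss23AT: acagcaggcacagacaggcagt
tni-mir-199-3-p3_2ss3AG22AT: acGgtagtctgcacattggtttt
ola-miR-199a-3p_R+1_1ss22AT: acagtagtctgcacattggtttt
dre-mir-731-p3_2ss10CT22CA: caccgggaatttcgtgtcagcaA
ssa-miR-731-3p: caccgggaatttcgtgtcagca
The mir-122-p5 row is thus the listed miR-122 with 1 mismatch and 3 further T, and mir-214-p3 and mir-731-p3 are the listed 3p miRNA with 1 further base. The sources used here do not say how reads were assigned between such rows, so the single values of these 4 rows are uncertain. Set against listed rows of any number, 2 more of the 12 met the same measure: mir-457a-p5 matched a listed miR-16b row over 20 bases with 2 mismatches, and mir-449a-p5 matched a listed miR-130a row over 15 bases with 2. Their values are uncertain for the same reason.

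The other arm of a hairpin pairs with the listed one, and this was computed as the number of base pairs in the best duplex of both sequences. In 109 hairpins with a listed 5p and a listed 3p row, the median was 16 base pairs. The 10th percentile was 14 and the 90th percentile 18. The pair of dre-mir-451-p3_1ss6TC (21 nt) and dre-miR-451_R-1 had 17. The mir-223-p5 row had 15 with miR-223, mir-199-3-p3 had 16 with miR-199-5p, and mir-457a-p5 had 16 with dre-mir-457a-p3, its own unlisted other arm; the table holds no listed miR-457 row. The mir-731-p3 row had 13 with miR-731-5p. At 12 lay mir-449a-p5 (18 nt) with miR-449a-3p and mir-99-2-p3 (16 nt) with miR-99. The 3 lowest among the named arms were mir-16a-1-p3 (21 nt) and mir-122-1-p3 (15 nt), with 8 base pairs each, and mir-30e-1-p3 (18 nt). The last had 7 against miR-30e-5p. The most it made with any of the 33 listed rows numbered 30 was 15, with a listed miR-30e-3p row. No level for unrelated sequences was computed. For mir-16a-1-p3 no listed 16a row was in the table, and 8 was also the most it made with any of the 9 listed miR-16 rows.

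The most abundant arm is named after miR-16, a family widely expressed in vertebrate tissues and known for restraining the cell cycle. As given above, it made at most 8 base pairs with any listed miR-16 row, and no listed row had its seed. Whether it comes from a miR-16 hairpin was not tested. In CPM, counts relative to the library total after TMM scaling, ssa-mir-16a-1-p3 stood at 174, 244 and 188 in the fasted libraries, against 344, 186 and 219 in the control libraries. The groups overlapped, and control replicate 3 was the highest of the 6. The log2 fold change, fasted over control, was -0.31 ± 0.36 (SE), with an edgeR quasi-likelihood adjusted p of 0.815. It was -0.0065 without control replicate 3, and 0.23 with scaling by library total alone. The arm ran at 16.6, 20.2 and 16.4% of the level of the commonest listed miR-16 row in the fasted libraries and at 28.3, 16.9 and 15.7% in the control libraries.

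Of the 3 rows named after miR-122, which in vertebrates is among the most abundant miRNAs of the liver and acts on lipid metabolism, 2 were abundant. The mir-122-p5 row, a variant of listed miR-122, stood at 71.1, 80.9 and 56.3 CPM in the fasted libraries, against 99.3, 106 and 87.5 CPM in the control libraries. After TMM scaling all 3 fasted libraries lay below all 3 controls. The fold change of -0.49 ± 0.32 (SE, log2) was not past the threshold (edgeR adjusted p = 0.606, 95% interval -1.22 to 0.24). With scaling by library total alone it was 0.08, and the groups overlapped. For the listed dre-miR-122_R-1 the log2 fold change was -0.50 ± 0.27 (SE) with the same edgeR adjusted p. As a percent of that row, mir-122-p5 stood at 0.0277, 0.0195 and 0.0193 in the fasted libraries and 0.0251, 0.0222 and 0.0177 in the control libraries, which overlap. Without TMM scaling, all listed miR-122 rows together held 42.6, 37.5 and 35.7% of the counts in the fasted libraries. In the control libraries they held 35.1, 40.1 and 37.9%, so these shares overlap too.

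The other, the 15-nt ssa-mir-122-1-p3_1ss12GA, stood at 52.1, 46.7 and 96.6 CPM in the fasted libraries, against 59.6, 41.5 and 66.1 CPM in the control libraries. The groups overlapped, with fasted replicate 5 the highest. Its log2 fold change was 0.22 ± 0.40 (SE, edgeR adjusted p = 0.901), and -0.05 without fasted replicate 5.

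Next came arms of miRNAs of blood cells. miR-451 is the erythroid miRNA of vertebrates, matured by Argonaute 2 without Dicer, and fish erythrocytes keep their nuclei. Its p3 arm, dre-mir-451-p3_1ss6TC, stood at 8.27, 4.67 and 40.3 CPM in the fasted libraries, against 14.8, 10.99 and 10.97 CPM in the control libraries. Fasted replicate 5 lay above every control and the other fasted libraries below every control. The log2 fold change was 0.53 ± 0.73 (SE, edgeR adjusted p = 0.873), and -0.81 without fasted replicate 5. The listed dre-miR-451_R-1 was also highest in that library, at 1573, 976 and 4236 CPM in the fasted and 1917, 2581 and 1501 CPM in the control libraries. The arm stayed at 0.508, 0.478 and 0.946% of it in the fasted libraries and 0.779, 0.441 and 0.738% in the control libraries. Rows of the erythrocyte miRNAs miR-451 and miR-144 together held 0.347, 0.113 and 0.893% of the counts in the fasted libraries and 0.292, 0.358 and 0.172% in the control libraries. In whole liver, a change in the number of blood cells and a change in the RNA per cell cannot be told apart.

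miR-223 marks myeloid cells in vertebrates. Its p5 arm stood at 9.10, 2.33 and 9.73 CPM in the fasted libraries, against 3.51, 12.2 and 5.64 CPM in the control libraries. The lowest value was in a fasted library and the highest in a control one. The log2 fold change was 0.14 ± 0.67 (SE, edgeR adjusted p = 0.958), and -0.26 without control replicate 3. The arm reached 13.3 to 21.2% of listed miR-223 in the fasted libraries and 13.98 to 35.1% in the control libraries, a far larger share of its partner than the class's median.

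Among the other arms tested, ssa-mir-30e-1-p3, named after the broadly expressed miR-30 family, stood at 10.7, 10.1 and 11.1 CPM in the fasted libraries, against 28.1, 13.4 and 10.7 CPM in the control libraries. The groups overlapped through control replicate 6. The log2 fold change was -0.73 ± 0.47 (SE, edgeR adjusted p = 0.606), and -0.16 without control replicate 3. The ola-mir-214-p3 row, a variant of the listed miRNA of connective tissue cells, stood at 30.6, 7.004 and 8.34 CPM in the fasted libraries, against 15.4, 6.10 and 8.78 CPM in the control libraries. Only fasted replicate 3 lay above the controls, and the log2 fold change, 0.53 ± 0.65 (SE) with an edgeR adjusted p of 0.822, was -0.36 without that library.

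The remaining 5 of the 12 did not pass the test's count filter, so their values are descriptions. The filter asks for a level in several libraries, not for a total alone. Thus mir-449a-p5, with 111 counts in all, failed it, while mir-223-p5, with 69.5, passed. ssa-mir-449a-p5, from a family known in multiciliated epithelia, stood at 4.13, 4.67 and 37.5 CPM in the fasted libraries, against 4.59, 1.22 and 8.78 CPM in the control libraries. Again fasted replicate 5 was the highest library. This arm exceeded its listed partner, with 111 counts over the 6 libraries against 39 for the listed miR-449a-3p row, and the listed row was likewise highest in fasted replicate 5, at 13.9 CPM. The 16-nt dre-mir-99-2-p3 stood at 31.4, 4.67 and 9.73 CPM in the fasted libraries, against 5.94, 0 and 1.88 CPM in the control libraries. Its level was highest in fasted replicate 3, the library in which the listed dre-miR-99_R-1 was lowest, at 522 CPM against 2830 to 5867 CPM in the other 5. The 23-nt dre-mir-99-1-p3_2ss8CT17GA did not share this peak. It stood at 1.65 CPM in fasted replicate 3, within a range of 1.56 to 4.17 CPM over the libraries. The mir-199-3-p3 row stood at 4.13, 10.1 and 15.98 CPM in the fasted libraries, against 3.78, 8.55 and 9.40 CPM in the control libraries. ccr-mir-457a-p5 stood at 14.1, 4.67 and 9.03 CPM in the fasted libraries, against 3.78, 3.66 and 7.21 CPM in the control libraries. The dre-mir-731-p3 row, from a fish miRNA, stood at 0, 3.11 and 6.95 CPM in the fasted libraries, against 7.83, 2.44 and 8.15 CPM in the control libraries; its 0 is 0.5 expected counts before rounding, so the row was detected in all 6. In all 5 the groups overlapped. A count of 0 allows up to 4.07, 2.09 and 2.52 CPM of unscaled counts in the fasted libraries and 0.714, 3.05 and 0.716 CPM in the control libraries (3 counts of each total, counting error only), so several of these values lie near the limit of depth.

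**Figure D3:**
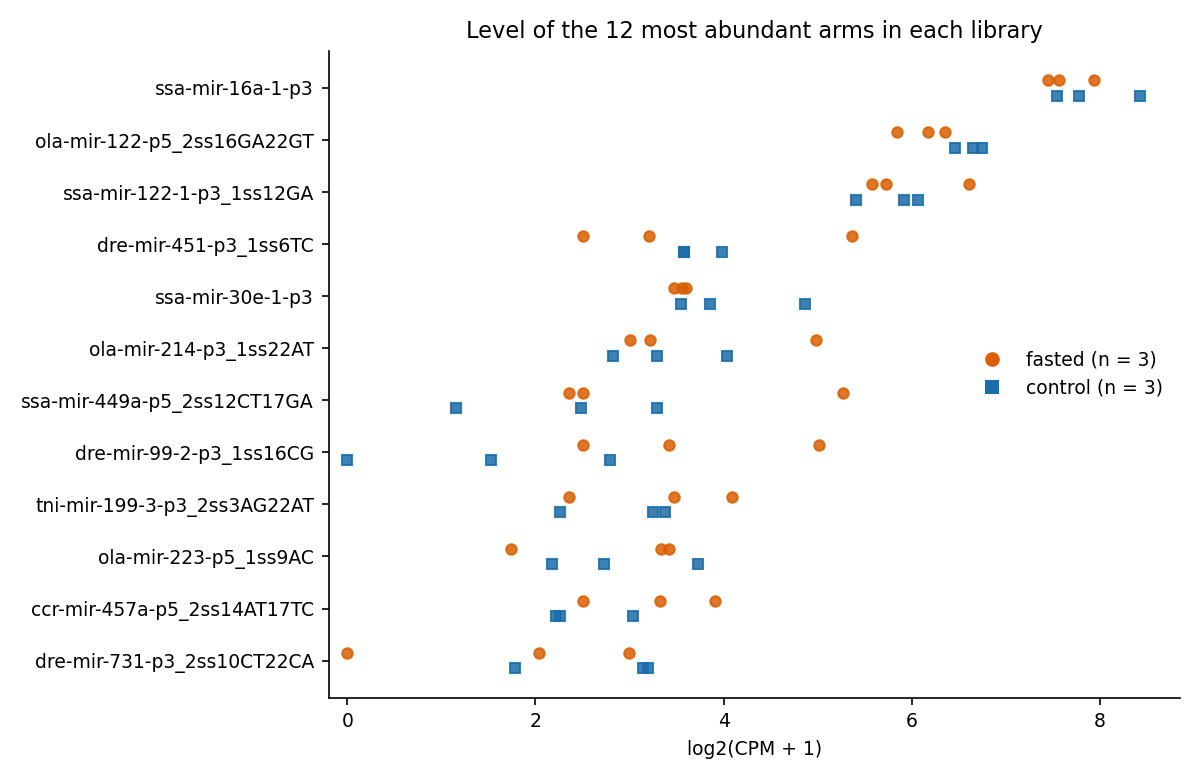
Level of the 12 most abundant unlisted hairpin arms in each library, as log2(CPM + 1) with TMM scaling; orange circles are the 3 fasted libraries and blue squares the 3 control libraries. The groups overlap in every arm but mir-122-p5, whose 3 fasted libraries lie at the left of the 3 controls.

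Over the whole table, edgeR tested 309 rows and called none at an adjusted p under 0.05 (0.00%), with 26 (8.41%) at an unadjusted p under 0.05, 15 (4.85%) higher and 11 (3.56%) lower in the fasted libraries. DESeq2 called 4 (1.29%), none of them an unlisted arm. The filter on low counts passed 7 of the 234 arms, or 2.99%. Of those 7, edgeR called 0, none had an unadjusted p under 0.05, and 0 were also called by DESeq2, by limma-voom, and by limma applied to the deposited normalized values. The fold change was above 0 in 4 and below in 3, with a median of 0.14 (log2), against a median of 0.01 over all 309 rows. In TMM-scaled CPM the groups did not overlap in 1 of the 7, mir-122-p5, against 17.5% of all tested rows in either direction. The share of all tested rows with the fasted libraries below was 8.74%. The 95% intervals of the 7 had a median half-width of 1.08 (log2), so changes of about that size lay within the error. The untested arms are not described by these counts. With no count filter, 8 of 203 arms had an unadjusted edgeR p under 0.05, against 88 of 1325 rows (6.64%) over the table, and no arm was called.

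**Figure D4:**
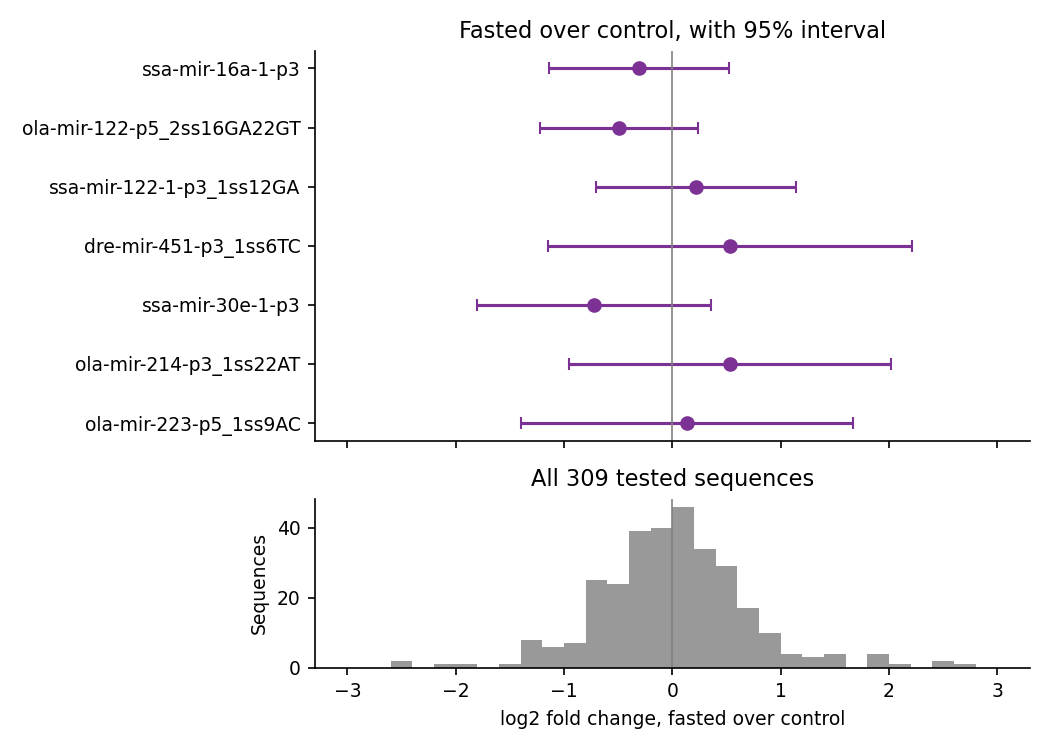
Top, log2 fold change (fasted over control) with its 95% interval for the 7 arms tested; bottom, a histogram of the fold changes of all 309 tested rows. All 7 intervals cross 0, and the 7 values lie between -0.73 and 0.53.

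Listed rows of the same hairpins were part of the same fit. Of 388 such rows 148 were tested, edgeR called 0 of them, and 6 had an unadjusted p under 0.05. Their fold changes were above 0 in 71 and below in 77, with a median of -0.03 (log2). A partner here is the commonest listed row of the same number and letter, on either arm of the hairpin. Some arms, such as mir-122-p5 and mir-214-p3, are thus variants of their own partner, and the shares below mix these with other arms. The arms were mostly far below their partners: of the 185 with a listed row of the same number and letter, 139 (75.1%) had under 1% of its counts, with a median of 0.0758%. In 5 the arm had more counts than the listed row, and in 2 of these, mir-449a-p5 and mir-726-p5, it had at least 10 counts.

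The 234 arms together held 0.0849, 0.0421 and 0.0666% of the table's counts in the fasted libraries, against 0.0583, 0.0371 and 0.0385% in the control libraries. The 95% Wilson intervals of the highest 2 were 0.0785 to 0.0918 for fasted replicate 3 and 0.0622 to 0.0714 for fasted replicate 5. For the highest control, replicate 3, the interval was 0.0561 to 0.0607. Such intervals hold the counting error within a library only, not the spread between libraries. Fasted replicate 4 lay within the control range. The mean was 0.0646 ± 0.0215% in the fasted and 0.0446 ± 0.0119% in the control libraries (SD, n = 3 each), a difference of 0.0199 percentage points with an exact two-sided permutation p of 0.2, where 3 against 3 cannot go below 0.1. Without fasted replicate 3 the difference was 0.00973 (exact permutation p = 0.4). As a share of mappable reads the order turned round, with 0.0187% in the fasted and 0.0236% in the control libraries (exact permutation p = 0.2).

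Within the sum, the arms of 15 to 19 nt other than those of mir-122 held 0.0165, 0.00340 and 0.00910% of the counts in the fasted libraries and 0.00553, 0.00227 and 0.00330% in the control libraries. The other arms of 20 nt or longer held 0.0196, 0.00535 and 0.0163% in the fasted libraries and 0.00847, 0.00702 and 0.00679% in the control libraries. For the mir-122 rows the shares were 0.0203, 0.0115 and 0.0185%, against 0.0140, 0.0123 and 0.0117%. Fasted replicates 3 and 5 were thus the highest in all of these parts, not in the short arms alone. They were also the highest of the 6 libraries in mir-7641 rows (1.78 and 0.326% of counts). The part of these features in the summed share was not tested. mir-16a-1-p3 alone held 0.0286, 0.0219 and 0.0227% in the fasted libraries and 0.0303, 0.0155 and 0.0167% in the control libraries, which overlap. The number of arms detected was 87, 55 and 64 in the fasted libraries and 128, 46 and 114 in the control libraries, and the 2 deepest control libraries had the most.

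**Figure D5:**
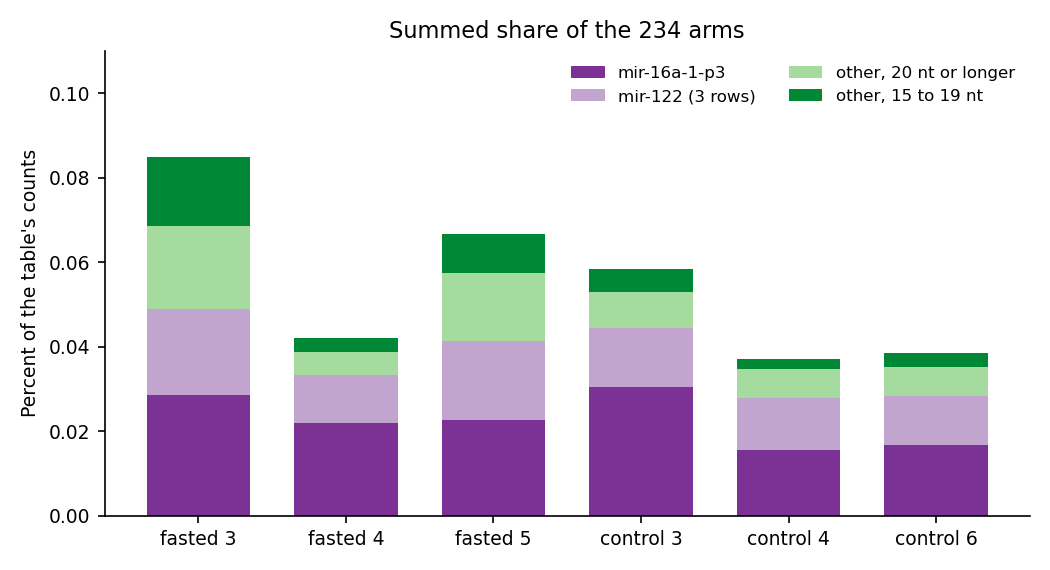
Percent of each library's table counts held by the 234 unlisted hairpin arms, stacked by mir-16a-1-p3, the 3 mir-122 rows, other arms of 20 nt or longer and other arms of 15 to 19 nt; the 3 fasted libraries stand left of the 3 control libraries. Fasted replicates 3 and 5 have the tallest bars, and fasted replicate 4 lies among the controls.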

How the data were processed

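The authors deposited a read summary with counts of reads per library and a table with 1 row per small RNA sequence. The raw values in it are expected counts, per the file headers and the values: 14.4 to 20.8% of each library's values are not whole (tolerance 1e-06). The deposited normalized signal is the expected count divided by a library size parameter in the file. The submitters' processing notes name Bowtie 1.1.1; the sources used here give neither counting program nor genome build, and no position in the trout genome was computed. Reads of 15 to 32 nt were kept, per the file headers.

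The whole table of expected counts, rounded to whole numbers, was fitted in R 4.3.3 by the quasi-likelihood method of edgeR 4.0.16 after TMM scaling and filterByExpr (count of at least 10, total of at least 15), with Benjamini-Hochberg adjustment and a threshold of 0.05. TMM factors ran from 0.898 to 1.64 in fasted and from 0.762 to 0.882 in control libraries. DESeq2 1.42.0, limma 3.58.1, other scalings and filters, and leaving out libraries were alternatives. Shares used unscaled counts and exact permutation tests (scipy 1.17.1). Base pairs came from RNAduplex (ViennaRNA 2.7.2). The 12 arms of highest mean CPM, and any with an unadjusted p under 0.05 (none had one), were named in full; a partner is the commonest listed row of the same number and letter, or of the same number for mir-16a. Arms named outside this rule were chosen after their values were seen. The members and lists were chosen with earlier results of these data known. No 2 libraries were duplicates (chi-square per degree of freedom at least 101). The fit was first run on simulated counts with known changes. Every simulated row had the same dispersion, so that run does not measure how the fit performs on these libraries.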

Additional observations from a re-analysis of the deposited data

How the results depend on the processing

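No unlisted arm was called under any alternative run. Over the whole table, where edgeR called 0 rows, DESeq2 called 4, edgeR with no count filter 11 of 1325, and leaving out each library in turn gave 0 to 1 (the 1 without control replicate 3). The 7 tested arms had 104 fold changes under alternatives, of which 91 kept their sign and 13 turned, 6 of these with a library left out. Scaling by library total alone, which shifted the median of all rows to 0.59 (log2), gave 0.23 for mir-16a-1-p3 and 0.082 for mir-122-p5. For mir-451-p3, limma-voom gave -0.014 and limma on the authors' normalized values -0.040. The cause of these turns was not tested.

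With a library left out, the lowest and highest log2 fold changes were -0.48 and -0.0065 for mir-16a-1-p3, -0.63 and -0.21 for mir-122-p5, -0.051 and 0.40 for mir-122-1-p3, -0.81 and 0.97 for mir-451-p3, -0.99 and -0.16 for mir-30e-1-p3, -0.36 and 0.96 for mir-214-p3, and -0.26 and 0.62 for mir-223-p5. The difference in summed share (0.0199 percentage points) ran from 0.00973 without fasted replicate 3 to 0.0311 without fasted replicate 4, was -0.00482 as a share of mappable reads, and as a sum of the authors' normalized values was -14.1 (869 in fasted and 883 in control libraries, exact permutation p = 1.0). From that sum, a normalized value was left out wherever the row had no count in the library. The number of arms close to a listed row was 59 with at most 2 mismatches and 33 with none, a count chosen after seeing the data.

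Numbers 3 and 4 occur in both groups. The deviations of same-numbered libraries from their group means correlated at 0.44 for number 3 and -0.035 for number 4 over 309 rows. The 2 values differ and the labels do not say what the number marks, so whether it stands for a shared tank or day is undecided, and no pairing was used. With a replicate block, edgeR called 0 of 309 rows, the fold changes of mir-451-p3, mir-122-1-p3 and mir-223-p5 were -0.99, -0.022 and -0.15, and the summed share differed by 0.0158. Depth limited most arms: 167 of 234 had under 3 counts in all.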

Other observations

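Some names did not keep the arms of a hairpin apart. The 6 rows of hhi-mir-7792 (halibut) include a p5 and a p3 row that share an unbroken run of 25 bases, although the arms of a hairpin are different stretches of it. The 3 rows below begin with the same seed, in capitals, and were chosen after their values were seen.
hhi-mir-7792-p5_1ss24AT: tTGCTATGatggtgtaatttgcgtc
hhi-mir-7792-p3_2ss24AT26TC: tTGCTATGatggtgtaatttgcgtcctact
hhi-mir-7792-p3_1ss18TC: tTGCTATGatggtgtaact
They held 4.75, 0.5 and 5.58 counts. The carp rows ccr-mir-722-p5_1ss1CT and ccr-mir-722-p3_1ss2CT shared a run of 15 bases. In 3 other rows the whole sequence was a repeat of 4 bases or fewer, among them dre-mir-338-2-p5_1ss15TG.
dre-mir-338-2-p5_1ss15TG: gTGTGTGTgtgtgtgt

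The 7 rows of ipu-mir-7550 (channel catfish) were variants of 1 sequence. The commonest, ipu-mir-7550-p5_2ss19TA20TA, held 15.8 counts and carried all 16 bases of the listed ipu-miR-7550_L-1R-1 with 4 further bases, in capitals.
ipu-mir-7550-p5_2ss19TA20TA: tccggctcgaaggaccAAAA
ipu-miR-7550_L-1R-1: tccggctcgaaggacc

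Outside the 12 most abundant arms, 2 zebrafish-named rows were noticed after their values were seen. dre-mir-726-p5_1ss4AG had 0, 0 and 0 counts in the fasted libraries, against 9, 2 and 8 in the control libraries, and made 16 base pairs with the listed miR-726 row, whose total of 9 counts was under its own of 19. The control counts are 2.43, 2.44 and 2.51 CPM with TMM scaling. Taken library by library, a count of 0 in the fasted libraries allows 2.09 to 4.07 CPM of unscaled counts. These limits are near the control levels but on another scale, so no fold is given. No limit was computed for the 3 fasted libraries together. dre-mir-733-p5 had 20.7, 1.67 and 3.58 counts in the fasted libraries, against 2.25, 0 and 3.25 in the control libraries, with fasted replicate 3 the highest. Rounded to whole counts and then scaled by depth with TMM, these are 17.4, 1.56 and 2.78 CPM in the fasted libraries. In the control libraries they are 0.54, 0 and 0.94 CPM. The 3 fasted libraries thus lay above the 3 controls, though 5 of the 6 values rest on under 4 counts before rounding. In the other mir-733 rows the groups overlapped. The commonest of those, dre-mir-733-p5_1ss1GA, contains the sequence of dre-mir-733-p5 whole. It stood at 6.62, 0 and 0 CPM in the fasted libraries, against 0.27, 0 and 0.31 CPM in the control libraries. Among the 309 tested rows, 8.74% had the fasted libraries above the controls and 8.74% had them below. No such share was computed for rows as rare as these 2, and dre-mir-733-p5 did not pass the test's count filter. Other untested arms also had groups apart in TMM-scaled CPM. dre-mir-1306-p5_2ss14CG17CG lay higher in the fasted libraries, with 3, 3 and 2 counts against 1, 1 and 4 in the control libraries. ccr-mir-722-p3_1ss2CT did too, with 1, 2 and 1 counts against 1, 0 and 1. Lower in the fasted libraries lay hhi-mir-181b-p3, with 3.33, 2 and 2.67 counts against 12.7, 2.67 and 12.3. So did ola-mir-30d-p5_1ss1GC (2, 2 and 1 control counts), ssa-mir-142a-1-p3 (2, 1 and 3) and fru-mir-16-p3_1ss11TA (1, 1 and 1), with no fasted counts. These separations rest on few counts, and no share for rows so rare was computed. In all remaining untested arms the groups overlapped in CPM from rounded counts. Before rounding, hhi-mir-7792-p3_1ss18TC had 0, 0 and 0 counts in the fasted libraries, against 4.25, 1 and 0.333 in the control libraries.
dre-mir-726-p5_1ss4AG: gGAGTTCCgctagttctgaact
dre-mir-733-p5: gTTTAGCTcagtggttact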
